A study of Mus musculus with 4 samples.

Results

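The surface markers by which early B-cell progenitors are recognized were examined through 10 names, *Kit*, *Flt3*, *Cd93*, *Il2ra*, *Cd34*, *Bst1*, *Enpep*, *Spn*, *Cd24a* and Cd43. Cd43 is another name of *Spn*, so the names stand for 9 of the 55359 genes in the count table. They were chosen by name, with earlier results of these data known, and all 9 were matched to GENCODE M21 on GRCm38. T8 is a pB-ALL cell line established from 1 primary tumor of an *Irf4*-/- C57BL/6 mouse, a tumor with an acquired *Jak3* mutation, so the line stands for a single tumor. The EV-RV libraries are from T8 cells transduced with a retrovirus coding for GFP alone. The IRF4-RV libraries are from T8 cells transduced with a retrovirus coding for GFP plus IRF4. Bulk RNAseq was performed a day after transduction with 2 libraries per group, labeled as biological replicates, and the *Irf4* deletion and the culture are common to both groups. The comparison asks how restoring IRF4 changes the transcripts by which B-cell progenitors are staged.

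As background, the Hardy scheme orders B-cell progenitors of the bone marrow by surface proteins. CD43 (*Spn*) marks the early fractions, CD24 (*Cd24a*) appears next, and BP-1 (*Enpep*) appears at the preB-I stage. The receptor tyrosine kinases KIT and FLT3 and the sialomucin CD34 are carried by earlier multipotent progenitors, and FLT3 is silenced as cells commit to the B lineage. CD25 (*Il2ra*) appears on preB cells that have passed the preBCR checkpoint, at the time when CD43 is lost. Transcripts do not report surface protein, and in bulk samples fewer cells of a type and less RNA per cell cannot be told apart.

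The promoter windows of the 3 members that changed most clearly at a moderate or high level are shown so that the sequence can be read beside the counts. The windows were taken from RefSeq on GRCm38.p6 and run from 250 bases before to 50 bases after a transcript start, 5′ to 3′ on the strand of the gene. Capitals mark a match to 1 of 3 motifs searched on both strands, the IRF repeat (GAAA, any 2 bases, GAAA), the composite ETS and IRF motif (GGAA, any 2 bases, GAAA), and the STAT motif (TTC, any 3 bases, GAA). The first and the second cannot match the same bases on the same strand.
Il2ra, chr2:11642542-11642841, plus strand: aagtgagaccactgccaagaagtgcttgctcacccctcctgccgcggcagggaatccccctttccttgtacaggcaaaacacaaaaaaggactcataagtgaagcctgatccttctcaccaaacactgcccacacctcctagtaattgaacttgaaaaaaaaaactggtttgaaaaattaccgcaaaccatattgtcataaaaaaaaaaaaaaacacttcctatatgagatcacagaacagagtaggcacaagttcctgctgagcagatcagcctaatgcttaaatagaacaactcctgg
Enpep, chr3:129332700-129332999, minus strand: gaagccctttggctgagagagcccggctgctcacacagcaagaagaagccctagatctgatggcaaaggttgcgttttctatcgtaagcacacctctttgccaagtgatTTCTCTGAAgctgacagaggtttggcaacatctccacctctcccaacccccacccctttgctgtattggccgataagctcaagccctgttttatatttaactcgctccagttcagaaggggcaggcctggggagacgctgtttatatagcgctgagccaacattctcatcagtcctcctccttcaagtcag
Spn, chr7:127137774-127138073, minus strand: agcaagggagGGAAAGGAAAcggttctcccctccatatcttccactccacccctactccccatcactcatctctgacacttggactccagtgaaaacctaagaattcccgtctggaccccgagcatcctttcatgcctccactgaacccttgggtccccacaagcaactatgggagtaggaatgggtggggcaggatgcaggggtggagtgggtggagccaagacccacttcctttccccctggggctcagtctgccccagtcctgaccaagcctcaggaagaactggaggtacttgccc
The *Spn* window held GGAAAGGAAA, a match to the composite motif at bases 11 to 20 of the window. The *Enpep* window held TTCTCTGAA at bases 110 to 118, which reads as the STAT motif on both strands. The *Il2ra* window held no match to these 3 motifs, which says only that these letters are absent from this window. Of 32851 windows in the RefSeq table, 3.44% held the IRF repeat, 2.72% the composite motif and 8.3% the STAT motif. Windows were found for 6 of the 9 members, and among them *Spn* and *Enpep* were the genes with a match.

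Total counts per library ranged from 31230223 to 37817752. CPM, counts scaled to a common library total, were computed on the TMM-adjusted library sizes, and a floor of 3 counts, which covers counting error only, lay at 0.0824 to 0.0952 CPM. *Irf4* counts were 8070 and 7600 for EV-RV against 95578 and 90693 for IRF4-RV (log2 fold change 3.46), and vector and endogenous reads are not separated. The EV-RV libraries, which carry the deletion and no IRF4 vector, thus held many *Irf4* reads, at a mean of 241.5 CPM. Where in the gene they lie cannot be read from counts per gene, so the deleted part was not checked. The labeled cell type was checked against 8 B progenitor markers. Together they took 3470 and 3640 CPM with EV-RV and 2450 CPM in each IRF4-RV library, with *Rag1*, which encodes a recombinase subunit, at no more than 1 count in any library. Stromal transcripts stood apart in 1 library. The line was first grown on ST2 stroma and, by the paper, no longer needed it after several passages. The source of these transcripts was not tested. The 6 stromal markers summed to 47.6 and 88.9 CPM with EV-RV and to 46.9 and 221 CPM with IRF4-RV, the highest being IRF4-RV replicate 2.

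The Hardy markers moved in opposite directions with IRF4-RV. *Enpep*, encoding the aminopeptidase BP-1, fell 2.26-fold, *Spn* rose 1.79-fold, and *Cd24a* did not pass the test. Of the other members, *Il2ra* rose 3.42-fold, *Flt3* 5.3-fold, *Cd93* 1.53-fold and *Bst1* 1.26-fold, and *Kit* and *Cd34* were at or near 0 counts. In all, 7 of the 9 members passed the filter on low counts, and 6 of these were differentially expressed at an FDR of 0.1, 5 higher and 1 lower (edgeR's quasi-likelihood test, adjusted over all genes tested). Of all 14637 genes tested, 29.7% were called, 16% higher and 13.7% lower. Scaled by library size only, 31.5% of all genes were called, 11.9% higher and 19.6% lower, and the members called were again 5 higher and 1 lower. DESeq2 also called 6 members, beside 26.6% of all genes. The groups did not overlap for any of the 7 members tested, nor for 61.3% of all genes tested. Leaving out 1 library at a time, 5 to 7 members were called, beside 23.0% to 23.5% of all genes. The median log2 fold change was 0.62 over the 7 members tested and 0.01 over all genes tested, and 0.52 and -0.08 with library size only.

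**Figure D1:**
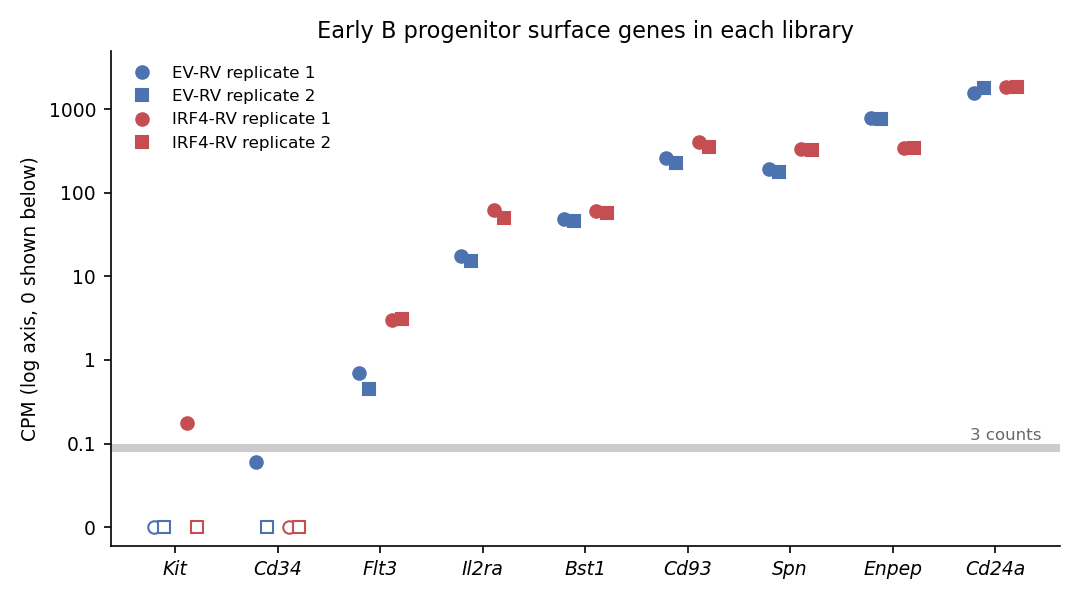
CPM on a log axis for each of the 9 genes in each library, circles for replicate 1 and squares for replicate 2, with open symbols for libraries at 0 and a gray band at the level of 3 counts. *Enpep* lies lower with IRF4-RV, *Flt3*, *Il2ra*, *Bst1*, *Cd93* and *Spn* lie higher, and *Kit* and *Cd34* have at most 6 counts in any library.

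*Enpep* (ENSMUSG00000028024, chromosome 3, 129269175 to 129332720, minus strand) encodes glutamyl aminopeptidase, the surface enzyme that the BP-1 antibody detects. Its EV-RV counts of 26430 and 24048 stood against 11727 and 12469 for IRF4-RV, or 792, 763, 346 and 342 CPM. Both IRF4-RV libraries lay below both EV-RV libraries, and the group means were 777.4 ± 20.8 and 344.4 ± 2.67 CPM (SD, n = 2 each). The log2 fold change was -1.17 (standard error 0.0708, 95% interval -1.34 to -1.01, edgeR adjusted p = 3.07e-05). It stayed between -1.20 and -1.16 whichever library was left out. Of all genes tested, 6.47% changed more in either direction.

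*Spn* (ENSMUSG00000051457, chromosome 7, 127132232 to 127137823, minus strand) encodes CD43, a heavily O-glycosylated sialomucin of leukocytes. Its counts were 6378 and 5561 for EV-RV against 11408 and 11677 for IRF4-RV, which is 191, 176, 337 and 321 CPM. The groups did not overlap. The means of 183.8 ± 10.5 and 328.8 ± 11.4 CPM (SD, n = 2 each) gave a log2 fold change of 0.84 (standard error 0.0767, 95% interval 0.66 to 1.02, edgeR adjusted p = 0.000254). Whichever library was left out, it lay between 0.78 and 0.89.

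*Cd24a* (ENSMUSG00000047139, chromosome 10, 43578284 to 43584265, plus strand) encodes CD24, a short mucin-like protein held in the membrane by a glycolipid anchor. It was the most abundant member, with 52814 and 56540 counts for EV-RV against 63069 and 67110 for IRF4-RV. This is 1580 and 1790 CPM against 1860 and 1840 CPM, and the lowest IRF4-RV library lay above the highest EV-RV library. The log2 fold change was 0.13 (standard error 0.0822, 95% interval -0.06 to 0.32, edgeR adjusted p = 0.294), so it was not called. It was called without EV-RV replicate 2 (0.23, edgeR adjusted p = 0.071), and with the replicate number as a block, a fit that called 43.7% of all genes.

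Ratios between members within a library do not depend on the scaling of libraries. Per merged exon length, *Enpep* stood at 4.12 and 4.3 times *Spn* with EV-RV and at 1.02 and 1.06 times *Spn* with IRF4-RV. The mean ratio was 4.04-fold lower with IRF4-RV. Against *Cd24a*, *Enpep* went from 0.274 and 0.233 to 0.102 in each IRF4-RV library, while *Spn* went from 0.0666 and 0.0542 to 0.0997 and 0.0959. For each of these ratios both IRF4-RV libraries lay on the same side of both EV-RV libraries. With 2 libraries against 2, an exact permutation test of such a ratio cannot give a two-sided p below 0.333, so none is given.

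**Figure D2:**
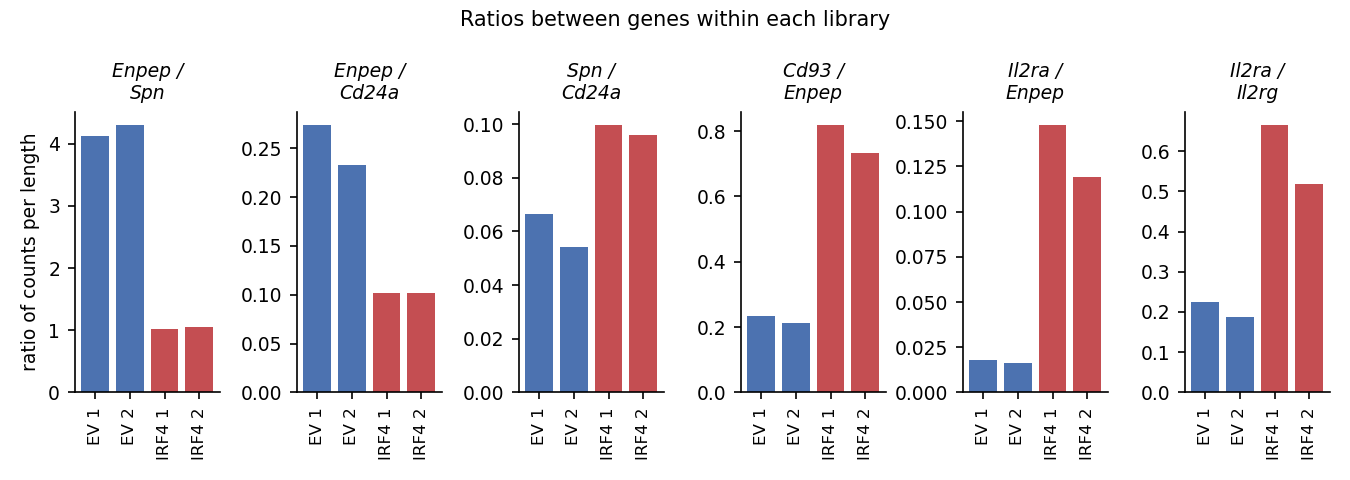
Bars give the ratio of counts per merged exon length between pairs of genes in each of the 4 libraries, EV-RV in blue and IRF4-RV in red, each panel on its own linear axis from 0. *Enpep* is over 4 times *Spn* in both EV-RV libraries and about equal to it, at 1.02 and 1.06, in both IRF4-RV libraries.

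*Il2ra* (ENSMUSG00000026770, chromosome 2, 11642807 to 11693193, plus strand) encodes CD25, the α chain that gives the IL-2 receptor its high affinity. Counts of 580 and 480 for EV-RV stood against 2100 and 1807 for IRF4-RV, or 17.4, 15.2, 62 and 49.6 CPM. Both IRF4-RV libraries were above both EV-RV libraries, and IRF4-RV replicate 1 was the highest. The log2 fold change was 1.77 (standard error 0.132, 95% interval 1.47 to 2.08, edgeR adjusted p = 8.32e-05), between 1.58 and 1.93 with each library left out. Of all genes tested, 2.67% changed more. The other chains of the receptor differed from it in level. *Il2rg*, the γ chain that is shared with the IL-7 receptor, had 1079 and 1075 counts for EV-RV against 1320 and 1458 for IRF4-RV (log2 fold change 0.25, edgeR adjusted p = 0.0781), and leaving out any 1 of the 4 libraries ended this call (edgeR adjusted p of 0.11 to 0.315). *Il2rb*, the β chain needed for signaling, had 4 and 7 counts against 9 and 19 and was too low to be tested. *Il2* itself, at between 11 and 25 counts, did not pass the test (log2 fold change 0.19, edgeR adjusted p = 0.836). Per length, *Il2ra* was at 0.225 and 0.187 times *Il2rg* with EV-RV and at 0.665 and 0.518 times with IRF4-RV.

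The receptor tyrosine kinases of early progenitors were low. *Flt3* (ENSMUSG00000042817, chromosome 5, 147330741 to 147400489, minus strand), the receptor for FLT3 ligand, had 23 and 14 counts in EV-RV cells, against 101 and 112 in IRF4-RV cells. This is 0.689 and 0.444 CPM against 2.98 and 3.08 CPM, with no overlap between the groups. The log2 fold change of 2.41 was the largest among the members (standard error 0.313, 95% interval 1.68 to 3.13, edgeR adjusted p = 0.00139), between 2.13 and 2.75 with each library left out. Of all genes tested, 1.45% changed more, while 85.0% of the genes tested had a higher level per length than *Flt3* in IRF4-RV cells. The gene for its ligand, *Flt3l*, had 21 and 15 counts against 28 and 39 (log2 fold change 0.78, edgeR adjusted p = 0.219).

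*Kit* (ENSMUSG00000005672, chromosome 5, 75574916 to 75656722, plus strand), the receptor for stem cell factor, had 0 counts in both EV-RV libraries, 6 in IRF4-RV replicate 1 and 0 in IRF4-RV replicate 2. The counts of 0 allow up to 0.0899 and 0.0952 CPM in the EV-RV libraries. All 6 counts were in 1 library, and no fold is given. *Kitl*, encoding its ligand, had 7 and 18 counts against 4 and 28, higher in replicate 2 of both groups, where the stromal markers were higher as well. Mast cells carry KIT, and of 6 mast cell markers 5 were at 0 in all 4 libraries while *Hdc* had at most 2 counts.

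*Cd34* (ENSMUSG00000016494, chromosome 1, 194938819 to 194961279, plus strand) had 2 counts in EV-RV replicate 1 and 0 in the other 3 libraries. It was not detectable at this depth in IRF4-RV cells, in which 3 counts correspond to 0.0886 and 0.0824 CPM. CD34 is the sialomucin by which multipotent progenitors are enriched, and its relatives *Podxl* and *Podxl2* were also too low to be tested, with at most 8 counts in any library.

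*Cd93* (ENSMUSG00000027435, chromosome 2, 148436640 to 148443563, minus strand) encodes the C-type lectin recognized by the AA4.1 antibody, which labels B-lineage cells from the earliest progenitors to immature B cells. It had 8822 and 7257 counts for EV-RV against 13625 and 12956 for IRF4-RV, or 264, 230, 402 and 356 CPM. The groups did not overlap, and the log2 fold change was 0.62 (standard error 0.0965, 95% interval 0.39 to 0.84, edgeR adjusted p = 0.00339). It lay between 0.50 and 0.71 with each library left out. CD93 is also carried by endothelium. Of the 6 markers of stem cells and endothelium, *Cdh5* and *Tek* had at most 1 count in any library, and *Pecam1*, which B cells express as well, made up most of the sum of 28.4 and 24.4 CPM with EV-RV and 147 and 125 CPM with IRF4-RV.

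*Bst1* (ENSMUSG00000029082, chromosome 5, 43818885 to 43843986, plus strand) encodes BP-3 or CD157, an enzyme of the ADP-ribosyl cyclase family with a glycolipid anchor. Its counts were 1597 and 1450 in EV-RV cells, against 2065 and 2080 in IRF4-RV cells, at 47.9, 46, 61 and 57.1 CPM. This was the smallest change among those called, with a log2 fold change of 0.33 (standard error 0.0839, 95% interval 0.14 to 0.53, edgeR adjusted p = 0.0262). Without IRF4-RV replicate 1 it was 0.26 and no longer called (edgeR adjusted p = 0.216). Its relative *Cd38* begins 24566 bases downstream on the same strand, and the pair differed in size of change. *Cd38* had 26 and 10 counts against 320 and 280 (log2 fold change 3.94, edgeR adjusted p = 0.000152). Exons of *Bst1* overlap those of *Fbxl5* on the opposite strand over 98 bases, and whether counting used the strand is not given in the sources used here.

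**Figure D3:**
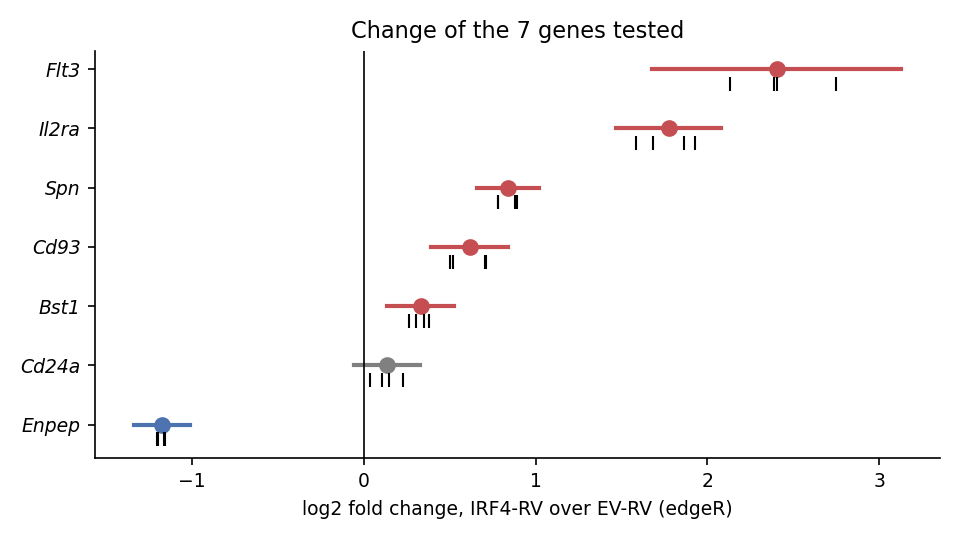
Log2 fold changes of the 7 genes tested (points) with 95% intervals (lines), IRF4-RV over EV-RV, and black ticks for the values with each library left out in turn. *Enpep* alone lies below 0, the interval of *Cd24a* includes 0, and *Flt3* has the widest interval, from 1.68 to 3.13.

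Levels were compared between genes as CPM per kilobase of merged exons. With EV-RV the order was *Cd24a* at 654, *Enpep* at 165, *Spn* at 39.3, *Cd93* at 37, *Bst1* at 14.1, *Il2ra* at 2.85 and *Flt3* at 0.0918. *Spn* and *Cd93* were not separate in this order, since their libraries overlapped, and neither were *Cd34* and *Kit* at its lower end. With IRF4-RV, *Cd24a* was at 718, *Enpep* at 73.2, *Spn* at 70.2, *Cd93* at 56.8, *Bst1* at 17.8, *Il2ra* at 9.77 and *Flt3* at 0.49. *Enpep* and *Spn* changed places when the longest transcript was used as length, with 82.4 for *Enpep* and 87.8 for *Spn*, so which of them was higher in IRF4-RV cells depends on the gene model. *Cd24a* was among the most abundant transcripts in both groups, as 0.713% of genes tested were above it with EV-RV and 0.755% with IRF4-RV.

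**Figure D4:**
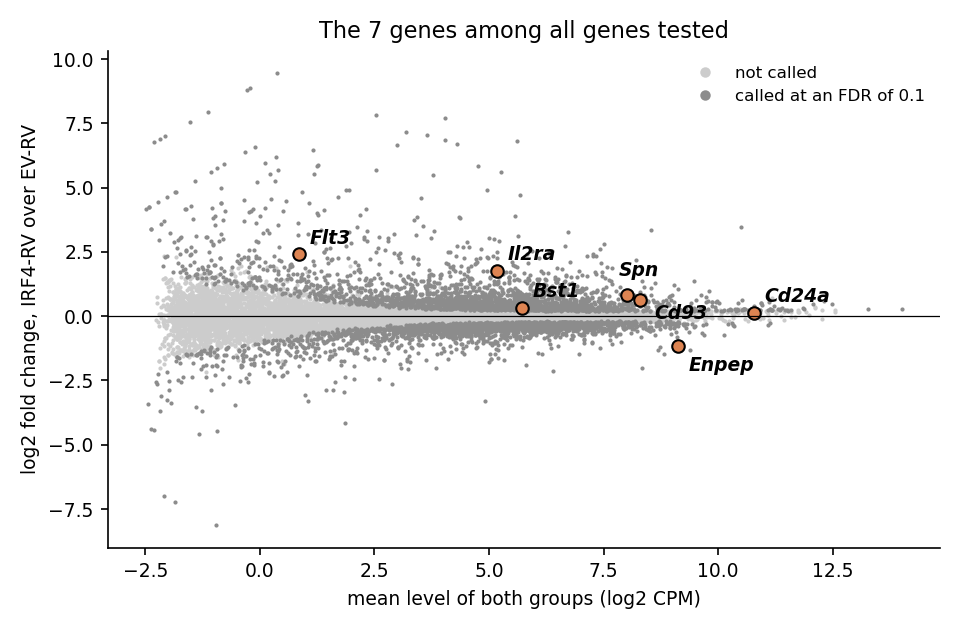
Each point is 1 of the 14637 genes tested, darker gray where called at an FDR of 0.1, with the mean level of both groups in log2 CPM on the horizontal axis and the log2 fold change on the vertical axis. The 7 members tested are labeled and lie from the sparse low end (*Flt3*) to the abundant end (*Cd24a*), with *Enpep* as the one below 0.

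Transcripts of other cells were set beside these results. Without IRF4-RV replicate 2, the library with the highest stromal sum, *Flt3*, *Cd93*, *Il2ra*, *Bst1*, *Enpep* and *Spn* were still called in the same directions, and the log2 fold change was -1.16 for *Enpep*, 0.88 for *Spn* and 1.93 for *Il2ra*. Of 6 T and NK cell markers, *Cd8a* and *Ncr1* were at 0 in all libraries, and *Cd3e* and *Cd3g* had at most 2 counts. *Gzma* had 0 and 1 counts with EV-RV against 5 and 7 with IRF4-RV. *Klrb1c*, with 42 and 33 counts against 35 and 54, made up most of the sum. That sum was 1.32 and 1.14 CPM with EV-RV and 1.18 and 1.7 CPM with IRF4-RV. Of 6 granulocyte markers, 3 were at 0, and the sum stayed between 0.0886 and 0.165 CPM. The 6 macrophage markers summed to 1.41 and 1.33 CPM with EV-RV and 8.42 and 7.22 CPM with IRF4-RV. *Mrc1*, with 24 and 23 counts against 260 and 230, made up most of this rise, and *Adgre1* and *Marco* were at 0 in all libraries. The part of these transcripts in the members' changes was not tested.

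Genes around the members were read from 8 lists of 91 genes in all, of which 74 were tested. Of these, 31 were higher and 10 lower with IRF4-RV, against 16% and 13.7% of all genes tested. With library size only, 25 were higher and 13 lower. The lists were chosen with earlier results of these data known, so these counts describe the lists and are no test of them. Some genes passed the filter on low counts only through IRF4-RV, so they could be called only higher. Examples were *Cd40* (0 and 2 counts against 84 and 94) and *Procr* (2 and 4 against 12 and 28). *Cd48* (10 and 7 against 113 and 118) was another. Leaving out 1 library at a time, 30 of the 41 calls held in each case and 11 were lost at least once.

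Among 8 ligands and counter-receptors, 5 were tested, and 2 were higher and 0 lower. *Siglecg*, encoding the inhibitory lectin Siglec-G that recognizes CD24, went from 262 and 255 to 1615 and 1816 counts (log2 fold change 2.61, edgeR adjusted p = 2.84e-06). *Kitl*, *Flt3l* and *Il2*, described above, were not called.

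Of 17 tested partners and signaling proteins of KIT, FLT3 and the IL-2 receptor, 8 were higher and 1 lower, with a median log2 fold change of 0.18. The largest change was that of *Sos1*, an exchange factor for RAS, at 0.64 (edgeR adjusted p = 0.00742). The adaptor *Sh2b3*, a brake on cytokine receptors, rose by 0.57 (edgeR adjusted p = 0.00549), and the ubiquitin ligase *Cblb* rose by 0.46 (edgeR adjusted p = 0.0192). *Pik3cd*, a catalytic subunit of PI3K, was the gene called lower, at -0.30 (edgeR adjusted p = 0.0323), and it was not called without IRF4-RV replicate 2 (edgeR adjusted p = 0.25). With library size only, 3 genes of this list were called higher and 1 lower. Without IRF4-RV replicate 1 the list held 4 calls, and likewise without IRF4-RV replicate 2.

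Relatives of the members moved both ways. Of 8 tested, 3 were higher and 1 lower. *Cd248*, encoding endosialin, and *Thbd*, encoding thrombomodulin, are of the same lectin family as *Cd93*. *Cd248* fell from 3013 and 2713 to 757 and 897 counts (log2 fold change -1.91, edgeR adjusted p = 1.09e-05), while *Thbd* rose from 525 and 544 to 1200 and 1144 (log2 fold change 1.02, edgeR adjusted p = 0.000474). *Lnpep*, encoding a surface aminopeptidase like *Enpep*, rose by 0.39 (edgeR adjusted p = 0.0409), a call lost without EV-RV replicate 1 (edgeR adjusted p = 0.152) and without IRF4-RV replicate 1 (edgeR adjusted p = 0.343).

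All 8 genes of CD43 tail binding and mucin glycosylation were tested, with 1 higher and 1 lower. *Msn*, encoding moesin, which binds the tail of CD43, rose by 0.41 (edgeR adjusted p = 0.00677), and the related *Ezr*, at 0.15, did not pass (edgeR adjusted p = 0.247). *Gcnt1*, encoding the enzyme that builds the core 2 branch on O-glycans of proteins such as CD43, fell from 159 and 140 to 53 and 63 counts (log2 fold change -1.48, standard error 0.204, edgeR adjusted p = 0.00181). *Galnt1*, which begins O-glycans, was at -0.14 (edgeR adjusted p = 0.222).

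Among 10 other surface genes of early progenitors, 7 were tested, 4 higher and 1 lower. *Ly6d*, a marker of B-committed lymphoid progenitors, went from 18 and 20 to 858 and 1032 counts (log2 fold change 5.51, edgeR adjusted p = 1.48e-06). *Cd48*, a ligand of the SLAM family, went from 10 and 7 to 113 and 118 (log2 fold change 3.63, edgeR adjusted p = 0.000217). Like *Procr*, *Cd48* passed the filter on low counts only through IRF4-RV. *Ly6a*, encoding Sca-1, went from 30 and 66 to 331 and 633 (log2 fold change 3.19, edgeR adjusted p = 0.00105). *Procr* had 2 and 4 against 12 and 28 counts (log2 fold change 2.56, edgeR adjusted p = 0.0347), and its adjusted p was 0.215 without EV-RV replicate 1, 0.115 without EV-RV replicate 2 and 0.295 without IRF4-RV replicate 2. *Il7r*, the gene of this list called lower, was at -0.29 (edgeR adjusted p = 0.0686), with adjusted p of 0.165 without EV-RV replicate 1, 0.136 without EV-RV replicate 2 and 0.446 without IRF4-RV replicate 2. *Thy1* and *Cd27* had at most 3 counts in any library.

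The proB and preB surface genes were all tested, with 3 of 10 higher and 3 lower. *Vpreb1*, *Vpreb2* and *Igll1*, the surrogate light chain genes, made up the lower ones, at -1.49, -1.32 and -1.30 on the log2 scale, beside -1.17 for *Enpep*. *Cxcr4*, the receptor for CXCL12, rose 2.01-fold (edgeR adjusted p = 0.000466), from 2799 and 2703 to 6342 and 5571 counts. *Cd79a* and *Cd79b*, the signaling chains of the B-cell receptor, were each at -0.01 on the log2 scale and did not pass the test. Of 9 later B-cell surface genes tested, 5 were higher and 1 lower, with *Cd40* at 0 and 2 counts against 84 and 94, *Cd74* at 2.09, *Cd22* at 0.74 and *Cd44* at 0.67 on the log2 scale. The lower one was *Cd2*, at -0.31 (edgeR adjusted p = 0.0465), and leaving out any 1 of the 4 libraries ended its call (edgeR adjusted p of 0.101 to 0.202), as did DESeq2 (adjusted p = 0.105).

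Of 14 transcription factors of progenitors, 10 were tested, with 5 higher and 2 lower. The lower ones were *Spi1*, at -0.45 (edgeR adjusted p = 0.00854), and *Irf8*, at -0.32 (edgeR adjusted p = 0.0152). With each library left out, *Irf8* lay between -0.35 and -0.30, but it was no longer called without IRF4-RV replicate 2. *Foxo1*, an activator of early B-cell genes, rose by 1.10 (edgeR adjusted p = 0.000144), *Runx1* by 0.93 (edgeR adjusted p = 0.000367), *Myb* by 0.62 (edgeR adjusted p = 0.00248) and *Ikzf1* by 0.55 (edgeR adjusted p = 0.00222). *Hoxa9*, *Meis1*, *Gata2* and *Tal1*, which act in stem cells and multipotent progenitors, were too low to be tested, with at most 11 counts in any library.

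**Figure D5:**
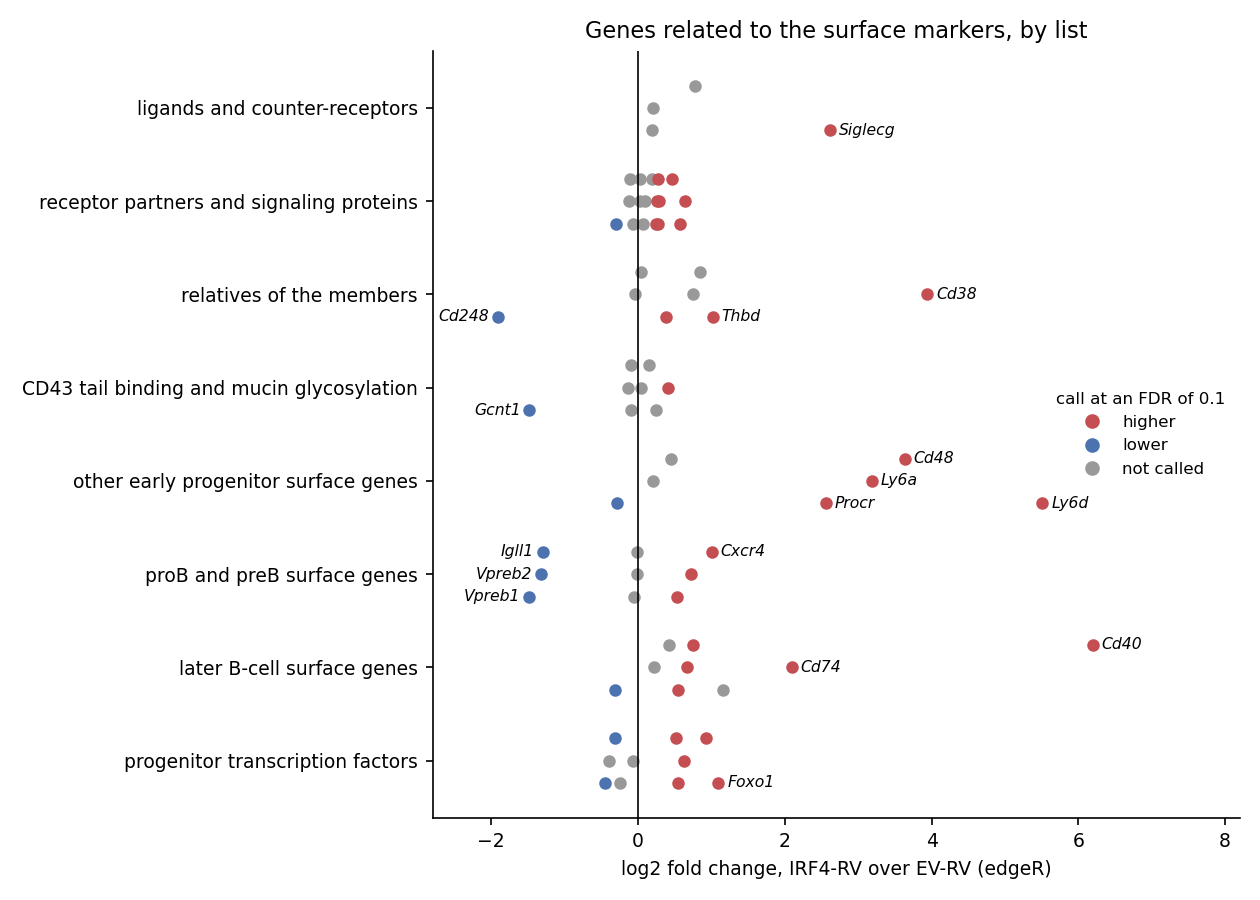
Log2 fold changes of 72 of the 74 tested genes of the 8 lists, 1 row per list, red for genes called higher with IRF4-RV, blue for genes called lower and gray for genes not called, with names for called genes beyond 1. Names on the left are *Cd248*, *Gcnt1* and the surrogate light chain genes, and *Ly6d* lies at 5.51 on the right.

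The genes nearest in pattern to each called member were found by the Euclidean distance of log2(CPM + 0.5) over the 4 libraries, with each gene centered. For *Enpep* these were *Car3* at 0.0677 and *Camk2d* at 0.0848, and 4 genes lay within 0.1. For *Il2ra* they were *Fam13a* at 0.0826 and *Helz2* at 0.0883. *Fam13a*, at 6 and 3 counts against 66 and 56, is so low that the pseudocount shrinks its values, and its fitted log2 fold change was 3.62 against 1.77 for *Il2ra*. For *Flt3* they were *Ier5l* at 0.147 and *Gm10552* at 0.167. For *Spn* they were *Nicn1* and *Tgfb3*, with 45 genes within 0.1, and for *Cd93* *Tigit* and *Atf6*, with 62. *Bst1* was nearest to *Exoc2* and *Cyld*, and 254 genes lay within 0.1 of it, so its pattern was shared widely. With 4 libraries this likeness is a description of 4 values per gene.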

How the data were processed

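T8 libraries were used as labeled in titles and tissue, although protocol texts name T11. The authors aligned reads to GRCm38 with STAR (version 2.4.0j), counted them per gene with featureCounts, and deposited raw counts. Settings for strand and multiple alignments are not given in the sources used here. Of 55359 identifiers, 52083 matched GENCODE M21, and the other 3276 held 0.203% to 0.486% of counts. TMM factors were 0.964 to 1.05.

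Genes passing filterByExpr were tested with edgeR 4.0.16 (R 4.3.3; quasi-likelihood F test, Benjamini-Hochberg, FDR of 0.1 as in the study), both groups in 1 fit. The standard error is the log2 fold change over the root of F. DESeq2 1.42.0 was an alternative. The fits were tested on simulated data, where the share of false calls was above the nominal FDR. P-values rest on the spread between 2 libraries per group, moderated by the spread over all genes tested. Replicates differed beyond sampling noise (chi-square per degree of freedom 15.5 and 14.3).

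Members and lists were chosen with earlier results of these data known. Genes named are the members, *Irf4*, and in each list called genes beyond 1 on the log2 scale plus the 4 with the smallest adjusted p, and others were chosen after their values were seen. Transcripts of other genes matching a member at 90% identity over 100 bases were found for *Cd93* (1169 genes), *Bst1* (550), *Il2ra* (39), *Flt3* (22), *Cd34* (20) and *Cd24a* (2), so counts there could include shared reads. No protein sequences were used here. Values of some genes of the lists are not reported here, although list counts include them.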

Additional observations from a re-analysis of the deposited data

How the results depend on the processing

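Of 70 values of the 7 members under the alternatives, 67 kept their direction and their side of the FDR cutoff, and all 70 kept their direction. The log2 fold change of *Bst1* was called in each alternative except without IRF4-RV replicate 1, and leaving out each library in turn gave 0.26 to 0.38 for *Bst1* and 0.038 to 0.23 for *Cd24a*. *Cd24a* was not called except without EV-RV replicate 2 and with the replicate block (0.14, edgeR adjusted p = 0.0377). The labels give same-numbered libraries no common origin, and their deviations correlated across genes at 0.26. On simulated data a larger share of calls was false with the block than without it. With the block 6394 genes were called against 4349, and 7 members against 6. The block changed the call of no other member. With library size only, *Bst1* was at 0.24 (edgeR adjusted p = 0.0926). DESeq2 called 3661 genes and the same number of members, 6. Without 1 library, the lone library of a group is taken to vary like the pair in the other group. Of 18 ranks by level per length in the 2 groups, 16 stayed with the longest transcript. *Kit* and *Cd34* are limited by depth, and a level under 3 counts could not be shown.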
